A study of Mus musculus with 14 samples.

Results

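The forkhead genes examined here were 10 genes of the Fox family known from facial mesenchyme: Foxc1, Foxf2 and Foxq1 on chromosome 13, Foxc2, Foxf1 and Foxl1 on chromosome 8, and Foxd1, Foxl2, Foxp1 and Foxp2. They were followed by the promoter contacts of each gene, that is, every listed pair in which a captured fragment (bait) held an annotated start site of the gene in the mm10 build. A bait met this rule for 8 of the 10 genes, out of 22171 baits in all. No bait of these lists held the annotated start site of Foxq1 or Foxl1, so those 2 genes could be seen only from other baits.

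Promoter Capture Hi-C (PCHi-C) counts the ligation products between a captured promoter fragment and any other HindIII fragment of the genome. The data were 14 libraries of mouse cranial neural crest cells (CNCCs) in 7 conditions with 2 replicates each. At E10.5 the conditions were wild-type cells of the frontonasal process (FNP), the maxillary process (Mx), the mandibular process (Md) and the second pharyngeal arch (PA2), and PA2 cells of Hoxa2 knockout embryos. The other conditions were the wild-type developing pinna, the outer ear, at E12.5 and at E14.5. Wild-type cells were sorted on the RFP of Wnt1::Cre;ROSA RFP embryos, in which the Wnt1 promoter drives the Cre, and knockout cells on the GFP of Hoxa2 EGFP/EGFP embryos, so genotype and sort cannot be told apart. Tissue was dissociated with trypsin at E10.5 and E12.5 and with papain at E14.5, so that step and the last stage cannot be told apart either. FNP, Mx and Md are Hox-negative, and PA2 and pinna express Hoxa2. Expression was not measured in these libraries, so neither the knockout nor the cell identity could be checked from them.

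Each library came as a list of fragment pairs with a CHiCAGO score, a weighted negative natural logarithm of the p-value for contact above the background of that distance in that library. The lists held only pairs with a score of 5 or more, and a pair that was not listed was set to 0. A score of 0 here means under 5 and not the absence of contact. Where both replicates of a condition were unlisted, their spread was 0 by this rule. A contact just over 5 that left the lists counted as a large step. Read numbers were not part of the lists, so sequencing depth is unknown and the length of a list stands in for it. The libraries held 113670 to 186248 same-chromosome pairs, and the shortest lists were those of the knockout. Pairs between chromosomes made up 46.53% of the list in Md replicate 1 and 62.73% in E12.5 pinna replicate 2, against 2.64 to 5.61% in the other 12 libraries. The names of those 2 libraries' lists say that they were merged. All results below concern same-chromosome pairs.

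Forkhead proteins bind DNA through a winged-helix domain, and several of them pattern the mesenchyme that neural crest forms in the face. Foxc1 and Foxc2 act in the skull, the eye region and vessels. Foxf1, Foxf2, Foxc2, Foxd1 and Foxl1 are described as responding to Hedgehog signals from the facial epithelium, and Foxf2 is needed for closure of the palate. Foxl2 acts in the eyelid and ovary, Foxq1 in hair, and Foxp1 and Foxp2 in several tissues including brain and lung. Foxc1, Foxf2 and Foxq1 lie side by side, as do Foxc2, Foxf1 and Foxl1, in paralogous clusters.

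The start regions that the baits held are shown for the genes whose far contacts are described most below, together with Otp, the homeobox gene at which the farthest recurrent Foxd1 contacts ended. The sequences are RefSeq promoters of GRCm38.p6 on the plus strand, each 300 bases long, 5′ to 3′, ending 50 bases after the start. Capitals mark a match on either strand. The GC box was searched as GGGCGG, where matches may overlap, and was present in 35.7% of 32851 mouse promoters of this length. The CCAAT box was searched by those 5 letters and present in 37.4%. The letters TATAAA were present in 13.6%. No table entry was used for the other genes.
Foxf2, chr13:31625566-31625865: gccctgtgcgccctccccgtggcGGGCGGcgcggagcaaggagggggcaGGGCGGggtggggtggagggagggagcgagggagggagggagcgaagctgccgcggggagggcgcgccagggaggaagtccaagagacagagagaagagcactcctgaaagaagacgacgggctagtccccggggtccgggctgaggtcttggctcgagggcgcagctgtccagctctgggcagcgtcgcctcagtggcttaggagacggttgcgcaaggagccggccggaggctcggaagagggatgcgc
Foxc1, chr13:31806396-31806695: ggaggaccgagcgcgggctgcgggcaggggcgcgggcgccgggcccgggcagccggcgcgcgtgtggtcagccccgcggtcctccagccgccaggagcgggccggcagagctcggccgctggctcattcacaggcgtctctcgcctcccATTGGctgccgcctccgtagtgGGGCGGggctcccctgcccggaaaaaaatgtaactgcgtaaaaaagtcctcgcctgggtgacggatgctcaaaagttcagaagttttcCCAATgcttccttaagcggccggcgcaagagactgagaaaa
Foxd1, chr13:98353995-98354294: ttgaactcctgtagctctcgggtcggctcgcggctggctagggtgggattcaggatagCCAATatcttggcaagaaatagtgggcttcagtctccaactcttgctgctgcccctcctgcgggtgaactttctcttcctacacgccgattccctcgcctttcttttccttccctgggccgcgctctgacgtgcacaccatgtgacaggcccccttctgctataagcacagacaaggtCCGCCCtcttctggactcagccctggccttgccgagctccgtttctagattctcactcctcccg
Otp, chr13:94875386-94875685: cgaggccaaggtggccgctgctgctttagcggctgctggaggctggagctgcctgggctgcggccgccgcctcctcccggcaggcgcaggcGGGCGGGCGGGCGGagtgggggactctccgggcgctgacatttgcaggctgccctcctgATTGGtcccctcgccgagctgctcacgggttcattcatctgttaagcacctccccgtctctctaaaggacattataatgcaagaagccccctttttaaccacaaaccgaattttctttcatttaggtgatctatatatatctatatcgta
Foxf2 had 27 CpG and Foxc1 32, Otp 20 and Foxd1 15, against a median of 7 over all promoters. The Foxf2 promoter had 2 GC boxes, Foxc1 had 1 GC box and 2 CCAAT boxes, Foxd1 had 1 of each, and Otp had 3 overlapping GC boxes and 1 CCAAT box. None of the 4 had the letters TATAAA.

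Chromatin contacts over such distances often end at sites of CTCF, a zinc-finger protein that stops loop extrusion. The core letters CCA, NNAGNN and GGC in a row (N is any base) were therefore sought on both strands of the 8 baits and of the 4 contacted fragments with the highest mean score of each bait. They occurred in 7 of 8 baits, where 39.8% of fragments of like length had them on average, and in 13 of 32 contacted fragments, against 14.9%. Some of them are printed for the Foxd1 bait, for one contact each of Foxc1 and Foxf2, and for the Foxf2 contact that was not listed in the knockout. Each run is read along the strand of the match in GRCm38, with the match in capitals.
Foxd1 bait, chr13:98351696-98351735, plus strand: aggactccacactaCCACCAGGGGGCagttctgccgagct
Foxc1 contact 0.6 Mb downstream, chr13:32411768-32411807, minus strand: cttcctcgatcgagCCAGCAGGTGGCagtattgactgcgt
Foxf2 contact in Exoc2, chr13:30888679-30888718, plus strand: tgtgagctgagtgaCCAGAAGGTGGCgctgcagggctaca
Foxf2 contact unlisted in the knockout, chr13:31081769-31081808, minus strand: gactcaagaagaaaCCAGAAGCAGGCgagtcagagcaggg
A match is a run of letters and no evidence of CTCF binding, which was not measured here. The fragments of like length were not matched on base composition, and its part in the shares above was not tested.

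Most forkhead baits were among the richer baits of the series. The mean number of listed contacts over the 14 libraries was 58.7 for Foxc1, 43.4 for Foxc2, 36.1 for Foxp2, 32.0 for Foxd1, 29.6 for Foxf2, 29.4 for Foxl2, 16.0 for Foxf1 and 4.4 for Foxp1. The median bait had 4.43. Foxc1 had more than 99.5% of baits and Foxp1 more than 48.9%. Bait fragments ranged from 3802 bases for Foxl2 to 18756 for Foxf1, so these counts compare fragments and not genes of equal length. The Foxp1 bait held 2 of its 22 annotated start sites, both inside the gene, and the Foxp2 bait held 6 of 16. The Foxf2 bait also held starts of 1700018A04Rik, Gm11378 and Gm27516. The Foxf1 bait also held those of the long noncoding RNA Fendrr and of Gm27530, and the Foxl2 bait that of Foxl2os. The contacts of the Foxf2, Foxf1 and Foxl2 baits therefore cannot be assigned to one of the genes.

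At the Foxc1-Foxf2-Foxq1 locus the 2 baits faced away from each other. Foxf2 (chr13:31625816-31631403, plus strand) contacted fragments upstream, with 96.8 to 100% of its listed contacts on that side in every library. Foxc1 (chr13:31806633-31812476, plus strand) contacted fragments downstream, with at most 1.5% upstream in any library. Of 43 Foxc1 and 31 Foxf2 contacts listed in at least 7 libraries (called recurrent here), 0 were shared. Over all fragments ever listed, 2 of 161 for Foxc1 and 2 of 78 for Foxf2 were common to both. At the Foxc2-Foxf1-Foxl1 locus the sides were alike but less separate. Foxc2 (chr8:121116171-121118895, plus strand) had at most 4.7% of its contacts upstream, and Foxf1 (chr8:121084386-121088144, plus strand) had a median of 82.5% upstream, with a range of 33.3 to 94.4% over libraries. The lowest share, in E12.5 pinna replicate 2, rested on 6 listed contacts. They shared 1 recurrent fragment, out of 43 for Foxc2 and 11 for Foxf1. Over all fragments ever listed, 20 of 84 for Foxc2 and 20 of 58 for Foxf1 were common to both. One-sided reach was common in the series: of 3254 baits with at least 10 recurrent contacts, 65.4% had 90% or more of them on one side.

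The start fragments of the linked genes were not listed with each other. No pair among Foxc1, Foxf2, Foxq1 and the bait inside the Foxq1 body, nor among Foxc2, Foxf1 and Foxl1, had a score of 5 or more in any of the 14 libraries. The fragments of those pairs were 3.8 to 248.7 kb apart between midpoints. The paper states that most Hi-C-based methods cannot tell very close contacts from the generally high background. At wider distances in this range forkhead baits did have recurrent contacts, such as Foxc2 at 178.5 kb and Foxd1 at 231.2 kb. Why the linked pairs were unlisted was not tested.

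Foxq1 and Foxl1 were seen only from the other side. The fragment with the Foxq1 start (chr13:31555190-31557046) was listed with the bait at the Exoc2 start, 579.7 kb away, in 5 libraries, with scores of 5.36 in Mx replicate 1, 9.56 in Md replicate 1, 6.27 in PA2 replicate 2, and 6.07 and 6.75 in the knockout. It was also listed with the Dusp22 bait in 1 library, at 5.27. The fragment with the Foxl1 start (chr8:121127315-121129170) was listed once, at 5.74 in knockout replicate 2, with a bait 414.3 kb away. A bait inside the Foxq1 body, which holds the start of A530084C06Rik and was added after the lists had been seen, had 50 listed fragments, all at lower coordinates, the side that Foxf2 reached. Of them, 44 were also Foxf2 fragments (44 of 50 and 44 of 78), and of its 8 recurrent fragments 6 were among the 31 of Foxf2.

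**Figure D1:**
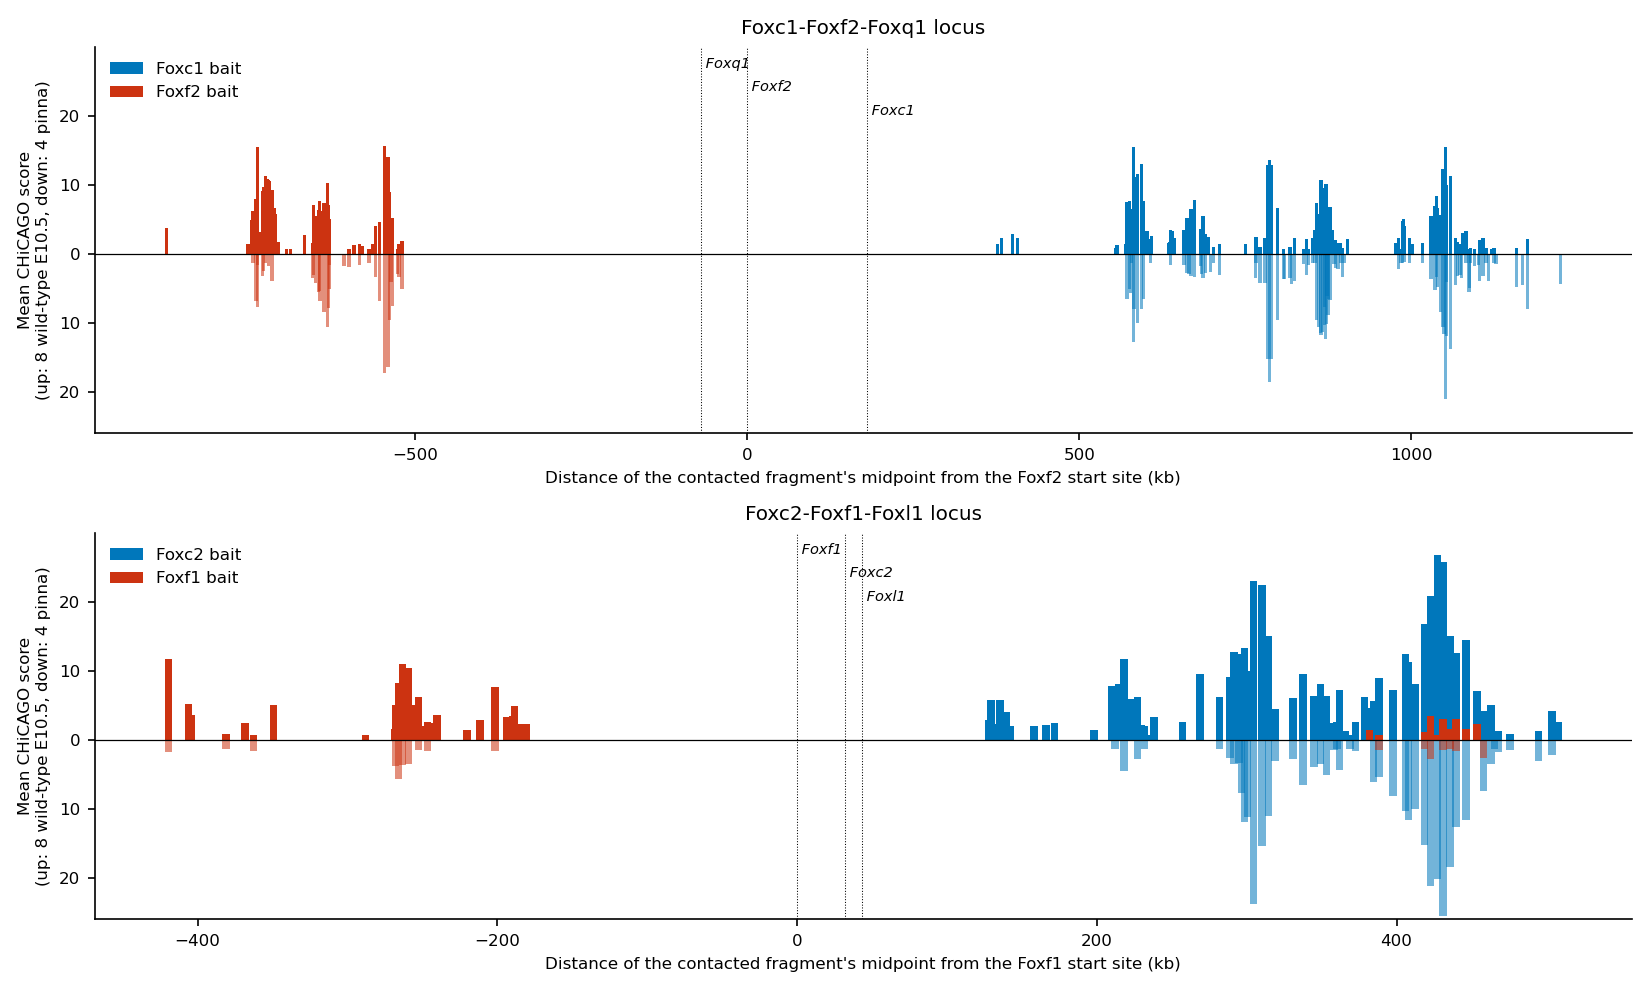
Contact profiles of the 2 linked loci. The x axis is the distance in kb of the contacted fragment from the Foxf2 or Foxf1 start site, bars pointing up are the mean CHiCAGO score over the 8 wild-type E10.5 libraries and bars pointing down the mean over the 4 pinna libraries. Foxf2 and Foxf1 bars (red) lie mostly to the left and Foxc1 and Foxc2 bars (blue) to the right, and 0 recurrent fragments were shared at the first locus and 1 at the second.

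Blocks were runs of recurrent fragments less than 20 kb apart. The series had more E10.5 than pinna libraries. A fragment listed only at E10.5 could therefore enter a block, but one listed only in the pinna could not. Foxc1 contacts fell in 6 blocks. The nearest began 389.4 kb downstream, in introns of Gmds, a GDP-mannose dehydratase gene, and the farthest, chr13:32651093-32693461, began 844.5 kb downstream in a stretch nearest to Mylk4. The block chr13:32407026-32431185, 600.4 kb downstream, had its highest summed scores in E14.5 pinna, 59.4 and 78.5. It ranged from 24.9 to 53.2 over the other libraries. In the other Foxc1 blocks the E14.5 and E10.5 libraries overlapped. The highest mean score was at chr13:32675869-32678082, with 19.15 and 17.98 in FNP, 11.54 and 18.49 in Mx, 11.4 and 14.49 in Md, 14.38 and 16.97 in PA2, 13.81 and 15.36 in the knockout, 15.97 and 25.27 in E12.5 pinna, and 18.67 and 24.13 in E14.5 pinna. The contact was listed in every library. Both FNP libraries were above both libraries of Md, PA2 and the knockout, and both E14.5 libraries were above all Mx, Md, PA2 and knockout libraries, but the contact passed none of the 4 tests. The summed score of the Foxc1 bait was 640.5 and 695.1 in FNP, 407.6 and 484.9 in Mx, 438.7 and 411.9 in Md, 455.9 and 444.6 in PA2, 321.4 and 477.7 in the knockout, 329.4 and 540.2 in E12.5 pinna, and 484.3 and 770.8 in E14.5 pinna. Both FNP libraries stood above the other E10.5 libraries, but the adjusted p of the F test among the E10.5 populations was 0.9258 (limma), and the 2 pinna replicates of each stage lay far apart.

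Foxf2 contacts fell in 3 blocks upstream, at 532.4, 627.7 and 708.1 kb. The nearest holds the start of the noncoding Gm48662, the middle one the start of Exoc2, an exocyst subunit, and the farthest (chr13:30881045-30917740, 13 fragments) lies inside Exoc2. The farthest block had summed scores of 106.5 and 125.9 in FNP, 127.3 and 130.6 in Mx, 124.1 and 144.0 in Md, 117.0 and 98.0 in PA2, 114.3 and 75.5 in the knockout, 17.5 and 34.0 in E12.5 pinna, and 22.4 and 46.5 in E14.5 pinna. All pinna libraries were below all E10.5 libraries in it. The nearest block was 36.4 to 70.8 at wild-type E10.5 and 42.5, 69.0, 61.3 and 87.6 in the pinna, so it overlapped between stages, as did the middle block at 37.3 to 93.4 and 43.3 to 86.6. Blocks were built from these scores and were not tested as such. The rule for recurrent fragments favours blocks that are lower in the pinna.

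Foxc2 contacts fell in 3 blocks downstream, all within the long gene model Gm20388. The largest, chr8:121346778-121548740, held 35 of the 43 recurrent fragments and reached 431.1 kb from the bait. Its summed score was 513.3 and 456.1 in FNP, 387.8 and 391.4 in Mx, 323.4 and 374.9 in Md, 339.0 and 420.8 in PA2, 280.0 and 291.9 in the knockout, 330.6 and 282.3 in E12.5 pinna, and 287.3 and 333.4 in E14.5 pinna. It was listed strongly in all conditions. The block nearer to the gene, chr8:121293635-121312437, had 31.7 to 63.3 in the wild-type E10.5 libraries and 44.2 and 47.2 in the knockout, against 12.3 and 6.9 in E12.5 pinna and 5.6 and 10.3 in E14.5 pinna, with no overlap between stages. The nearest block of all, 97.2 kb downstream, was at 6.4 to 15.8 in the E10.5 libraries and was not listed in the pinna. These separations lie in the direction that the rule for blocks favours.

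Foxf1 had 11 recurrent contacts, of which 7 formed one block (chr8:120816043-120832817) 251.6 kb upstream. The block had 37.4 and 73.3 in FNP, 66.9 and 71.1 in Mx, 42.2 and 44.6 in Md, 23.2 and 48.6 in PA2, 31.5 and 51.5 in the knockout, 5.7 and 14.4 in E12.5 pinna, and 14.7 and 37.4 in E14.5 pinna. The Foxf1 contact with the highest mean score was the fragment with the Emc8 and Cox4i1 starts, 419.5 kb upstream, listed at 7.83 to 15.77 in all E10.5 libraries and in 1 of 4 pinna libraries, at 7.33. A fragment with the start of Irf8, an interferon regulatory factor gene, was at most 8.1 and was not listed in the pinna.

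Foxd1 (chr13:98354242-98359305, plus strand) had 30 recurrent contacts, of which 24 were downstream within the neighbouring stretch and 6 lay 3.47 Mb upstream at Otp. The larger downstream block chr13:98490335-98604235 had 135.3 to 206.0 in wild-type E10.5, 156.0 and 154.4 in the knockout, 169.8 and 136.9 in E12.5 pinna, and 97.0 and 128.5 in E14.5 pinna. Its highest fragment, 231.2 kb downstream, was listed in every library, at 9.01 to 24.02. The fragment with the Otp start, a bait as well (chr13:94874553-94878262), was listed at 17.46 and 12.94 in FNP, 42.16 and 26.06 in Mx, 12.65 and 24.71 in Md, 18.64 and 23.53 in PA2, 16.73 and 21.07 in the knockout, 5.55 and 9.65 in E12.5 pinna, and 6.99 and 0.0 in E14.5 pinna. The whole block at Otp summed to 54.9 to 126.6 in wild-type E10.5, 52.2 and 58.4 in the knockout, 38.9 and 43.8 in E12.5 pinna, and 7.0 and 0.0 in E14.5 pinna. The E14.5 libraries stood below all others in this block, and the E12.5 libraries below all E10.5 libraries. Contacts beyond 2 Mb made up 10.23 and 16.51% of all listed same-chromosome pairs in the E14.5 libraries, against 5.54 to 34.17% over all libraries. The part of this share in the result was not tested.

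Foxl2 (chr9:98955288-98958543, plus strand) had 22 of 25 recurrent contacts upstream and 3 at Sox14, a Sox gene 0.91 Mb downstream. The largest block, chr9:98596790-98666120, which holds the start of the mitochondrial ribosomal gene Mrps22, had 159.3 and 157.5 in FNP, 226.7 and 258.6 in Mx, 127.0 and 136.3 in Md, 117.4 and 72.7 in PA2, 88.4 and 88.1 in the knockout, 143.0 and 159.3 in E12.5 pinna, and 143.5 and 170.4 in E14.5 pinna. Both Mx libraries were above all others. The Sox14 block was at 7.6 to 26.1 in the wild-type E10.5 libraries, 5.6 and 6.0 in the knockout, 13.4 and 5.5 at E12.5, and not listed at E14.5.

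Foxl2 was also listed with fragments 7.54 to 7.61 Mb upstream, around Zic1 and Zic4, zinc-finger genes of the dorsal neural tube. This region (chr9:91348538-91415071, 20 fragments) was chosen after its values had been seen, and the values are a description. It had 5 and 8 listed fragments in FNP, 5 and 9 in Mx, 6 and 6 in Md, 3 and 1 in PA2, 3 and 2 in the knockout, 1 and 1 in E12.5 pinna, and 0 and 0 in E14.5 pinna. The summed scores were 48.8 to 108.8 in the 6 Hox-negative libraries and at most 30.4 in the other 8, without overlap. The share of listed pairs beyond 2 Mb was 10.02 to 27.71% in the Hox-negative libraries and 5.54 to 34.17% in the others. Its part in the result was not tested.

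Foxp2 (chr6:14901349-15441977, plus strand) reached farther than its own length, with all contacts downstream in every library and recurrent blocks 1.25 to 2.06 Mb away, in the stretch next to Mdfic and Tfec. The block chr6:16786343-16810831 had 42.0 and 94.3 in FNP, 80.2 and 86.3 in Mx, 84.2 and 104.9 in Md, 80.4 and 64.0 in PA2, 27.3 and 27.6 in the knockout, 61.0 and 94.8 in E12.5 pinna, and 70.5 and 102.3 in E14.5 pinna. The block chr6:16965342-16992796 had 40.1 to 93.0 in the wild-type E10.5 libraries, 13.6 and 15.2 in the knockout, 61.0 and 60.3 in E12.5 pinna, and 87.8 and 122.6 in E14.5 pinna. The knockout libraries were the lowest in both. The Foxp1 bait (chr6:99261624-99266840) had 1 recurrent contact, 1152.8 kb downstream with Mitf the nearest coding gene, listed at 6.55 to 11.2 in 9 libraries and unlisted in the other 5.

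**Figure D2:**
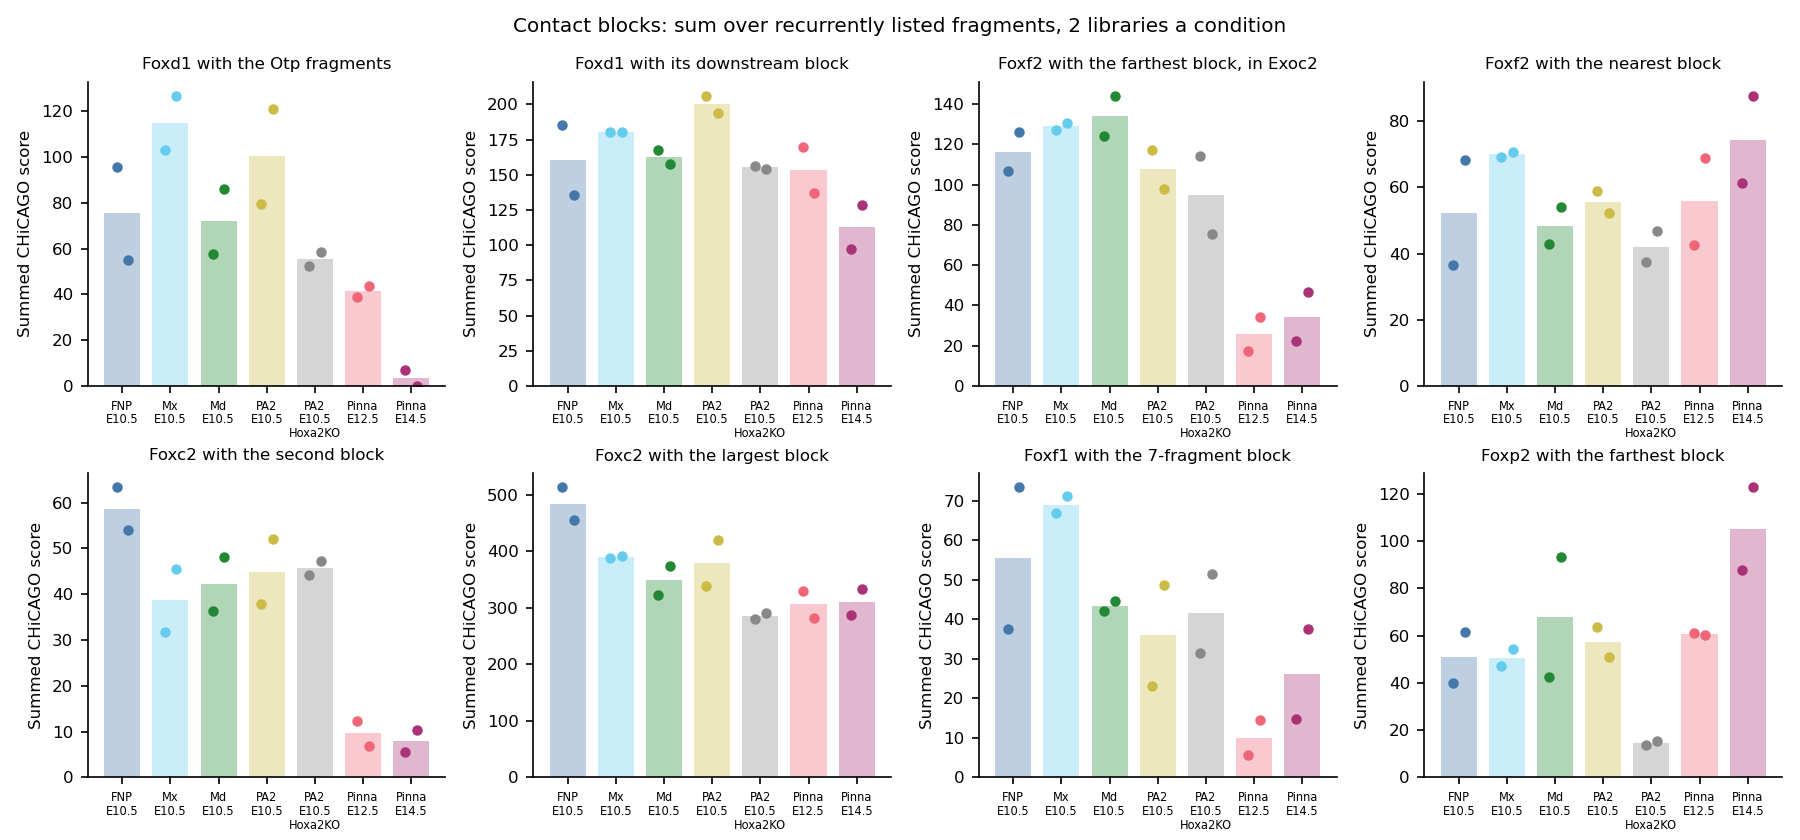
Summed CHiCAGO score of 8 contact blocks in each library, with the conditions on the x axis and 2 points a condition. The Foxd1 block at Otp is at 7.0 and 0.0 at E14.5, and the farthest Foxf2 block is at 17.5 to 46.5 in the pinna against 75.5 to 144.0 at E10.5.

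Among FNP, Mx, Md and PA2 at E10.5, few forkhead contacts passed the test. Of 321 tested pairs of these baits 4 passed (adjusted p under 0.05, limma), against 0.494% of all 159013 pairs tested. With the F test on baits, 0 of 8 passed, against 0.0% of all 21991 baits (0 called, 1182 with an unadjusted p under 0.05, of which 2 were forkhead baits). Foxl2 had 3 of the 4 pairs. The fragment 286.8 kb upstream (chr9:98666121-98670926) was listed at 9.44 and 7.34 in FNP and 8.8 and 6.98 in Mx and in no other library (adjusted p = 0.04069, limma). The fragment 257.9 kb upstream (chr9:98696400-98698295) was at 7.21 and 10.24 in FNP and 9.87 and 10.96 in Mx, unlisted in Md and PA2, and listed again in the pinna at 5.49 to 7.94 (adjusted p = 0.04069, limma). The fragment near Zic1 (chr9:91352523-91353294) was at 12.72 and 18.25 in FNP and unlisted in Mx, Md and PA2 (adjusted p = 0.04736, limma), although its neighbours were listed in Mx and Md. Foxd1 with chr13:98597318-98602334, 245.6 kb downstream, was unlisted in FNP and at 5.28 to 6.53 in Mx, Md and PA2 (adjusted p = 0.04069, limma), values barely over the list's minimum. None of the 4 pairs passed when scores were capped at 20, when libraries were quantile normalised, or when both libraries rich in between-chromosome pairs were left out. Leaving out single libraries gave 0 to 11 calls.

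From PA2 at E10.5 to the pinna at E12.5 and E14.5, the summed scores of the Foxf1 and Foxd1 baits were lower in the pinna. Of the 8 baits these 2 passed, against 1.74% of all baits (382 of 21991), and of the forkhead pairs 9 of 321 passed, against 1.95% of all pairs, which is a share near the background. The summed score of Foxf1 was 139.8 and 190.8 in FNP, 235.6 and 177.0 in Mx, 134.1 and 153.0 in Md, 67.3 and 124.9 in PA2, 123.2 and 129.6 in the knockout, 17.3 and 37.7 in E12.5 pinna, and 45.3 and 54.4 in E14.5 pinna. All 4 pinna libraries were below all 10 E10.5 libraries. On the log2 scale, with 5 added to the sum and libraries centred, E12.5 was lower than PA2 by 1.92 (log2 difference -1.92, SE 0.38) and E14.5 by 0.98 (-0.98, SE 0.38), with an adjusted p of 0.01629 for the F test (limma). The call was lost without PA2 replicate 2 (adjusted p = 0.2512, limma), without centring the libraries (adjusted p = 0.07297, limma), and with scores of 10 or more only (adjusted p = 0.136, limma). When listed contacts were counted instead of scores summed, neither Foxf1 (adjusted p = 0.06281, limma) nor Foxd1 (adjusted p = 0.151, limma) passed. Foxd1 was at 382.5 and 414.9 in PA2, 268.0 and 271.3 in E12.5 pinna and 149.1 and 182.8 in E14.5 pinna, against 233.2 to 381.3 in the Hox-negative libraries and 260.2 and 255.3 in the knockout. Its log2 difference from PA2 was -0.82 for E12.5 pinna and -1.40 for E14.5 pinna (SE 0.32), with an adjusted p of 0.04807 (limma). Of the other Hedgehog-responsive genes named above, Foxf2 and Foxc2 did not pass (adjusted p = 0.3295 and 0.3455, limma). The Foxd1 call was near the threshold and was lost without either PA2 replicate (adjusted p = 0.2585 and 0.2955, limma). It was also lost when pairs beyond 2 Mb, and with them the contacts at Otp, were left out (adjusted p = 0.1317, limma).

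3 of the called stage pairs were Foxd1 contacts at Otp. The 352-base fragment chr13:94874201-94874552, just before the Otp start fragment, was at 20.48 and 14.63 in FNP, 17.88 and 24.24 in Mx, 17.6 and 23.19 in Md, 17.63 and 24.11 in PA2, 5.93 and 9.91 in the knockout, 5.32 and 6.09 at E12.5, and unlisted in both E14.5 libraries (adjusted p = 0.0007334, limma). This contact passed in all 22 alternatives run. An intronic Otp fragment, chr13:94878836-94881422, was at 12.44 to 24.48 in wild-type E10.5, 9.88 and 10.95 at E12.5 and unlisted at E14.5 (adjusted p = 0.001087, limma). The other, chr13:94878475-94878835, passed narrowly (adjusted p = 0.04903, limma) and in 5 of 22 alternatives. The Foxc2 fragments 178.5 kb and 237.1 kb downstream were listed in all 10 E10.5 libraries and in no pinna library, with adjusted p of 0.02415 and 0.01578 (limma). The Foxc2 fragment 259.9 kb downstream was at 9.26 and 21.45 in PA2, 7.07 and 6.78 in E12.5 pinna and unlisted at E14.5 (adjusted p = 0.005292, limma). Foxf2 with an exon-holding Exoc2 fragment, 718.8 kb upstream, was at 5.14 to 15.65 in the E10.5 libraries and unlisted in the pinna (adjusted p = 0.00728, limma). The remaining 2 were Foxc1 with chr13:32311850-32312425 (adjusted p = 0.02415, limma) and Foxl2 with chr9:98696400-98698295 (adjusted p = 0.04553, limma), which were unlisted in PA2 and listed at E12.5. Those 2 rested on scores of 5.49 to 7.94 in the listed pinna libraries.

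**Figure D3:**
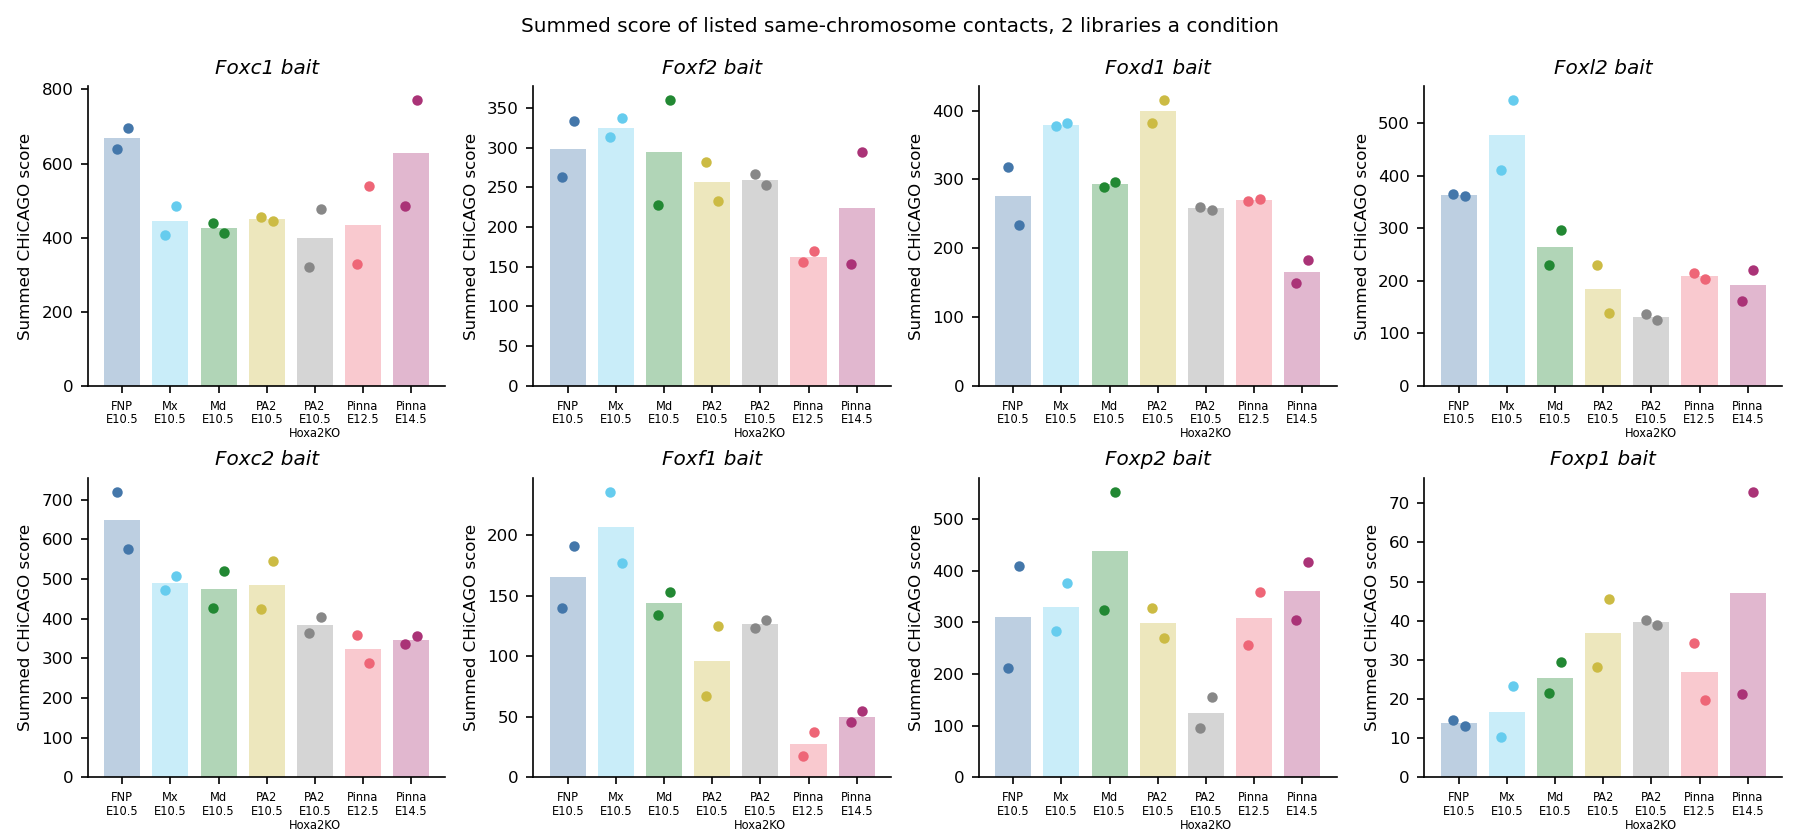
Summed CHiCAGO score of the listed same-chromosome pairs of each of the 8 forkhead baits, with the conditions on the x axis and 2 points a condition. The 4 pinna points of Foxf1 lie at 17.3 to 54.4, below its 10 E10.5 points at 67.3 to 235.6, and the E14.5 points of Foxd1 at 149.1 and 182.8 are its lowest.

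In the Hoxa2 knockout PA2, 9 of the 321 forkhead pairs passed, against 2.09% of all pairs. Of these 6 were lower in the knockout, against 1.74% of all pairs, and 3 were higher, against 0.359%. The counts of all called pairs and of lower pairs were shares near the background, so they set the forkhead baits apart from no others. The smallest adjusted p-values were those of 1 Foxf2 and 2 Foxp2 fragments that were unlisted in the knockout. Unlisted scores were set to 0, so part of each such difference and of its small SE comes from that rule. Foxf2 with chr13:31076340-31084294, 545.5 kb upstream, was at 18.37 and 16.36 in wild-type PA2, 10.08 to 22.76 in the other 10 wild-type libraries, and unlisted in both knockout libraries (difference of asinh score -3.55, SE 0.29, adjusted p = 0.000449, limma). It passed in all 22 alternatives run. The fragment next to it, chr13:31084295-31086262, stayed at 9.3 and 8.89 in the knockout against 10.59 and 14.97 in PA2, and the whole nearest block at 37.3 and 46.8 against 58.8 and 52.2. The bait inside the Foxq1 body had summed scores of 96.3 and 92.2 in the knockout against 90.7 and 80.3 in PA2. That bait was listed with chr13:31076340-31084294 in all 14 libraries. Its scores there were 5.65 and 5.39 in the knockout, the lowest of the series, against 10.14 and 7.79 in PA2.

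At Foxp2 the neighbouring fragments were low in the knockout as well. The fragment chr6:16977508-16979180, 2077.0 kb downstream, was at 15.52 and 17.72 in PA2, 8.66 to 31.24 in the other wild-type libraries and unlisted in the knockout (-3.50, SE 0.34, adjusted p = 0.000744, limma). The fragment chr6:16794802-16795726 was at 6.75 and 12.74 in PA2 and unlisted in the knockout (-2.92, SE 0.31, adjusted p = 0.00102, limma). The next fragment, chr6:16971216-16977507, was listed at 5.39 and 6.24 in the knockout against 25.87 and 12.68 in PA2 and did not pass. The 2 blocks around these fragments were at 13.6 and 15.2 against 63.5 and 51.0, and at 27.3 and 27.6 against 80.4 and 64.0. For the whole Foxp2 bait the summed scores were 95.4 and 155.5 in the knockout and 328.3 and 270.0 in PA2, the lowest pair of the series, with a centred log2 difference of -1.08 (SE 0.36, adjusted p = 0.203, limma). With the knockout lists the shortest of the series, the part of list length in these losses was not tested beyond the setting with equal numbers of pairs in all libraries. In that setting 6 of 269 forkhead pairs passed, against 1.74% of all 119755 pairs, a share near the background.

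The other lower pairs were Foxc1 with chr13:32221276-32224106 in a Gmds intron, at 8.84 and 7.86 in PA2 and unlisted in the knockout (adjusted p = 0.00236, limma), and Foxl2 with chr9:98600175-98610969, at 5.19 and 5.8 and then unlisted (adjusted p = 0.005128, limma). With equal numbers of pairs in all libraries neither passed (adjusted p = 0.1181 and 0.5, limma). Foxc2 with chr8:121385711-121392054 was at 23.63 and 18.07 in PA2 and 9.84 and 11.37 in the knockout (-0.67, SE 0.14, adjusted p = 0.03102, limma), and was the only called contact that stayed listed in both. The higher pairs were Foxc1 with chr13:32311850-32312425 at 5.33 and 7.07, Foxf2 with chr13:30913115-30913626 at 7.55 and 5.88, and Foxl2 with chr9:91352523-91353294 at 15.32 and 7.21, each unlisted in wild-type PA2. The first 2 of these were listed at 5.11 to 11.67 in all 6 Hox-negative libraries as well, and the third in FNP. The Foxc1 contact was also listed in E12.5 pinna, which expresses Hoxa2, at 5.97 and 7.93. With equal numbers of pairs the Foxc1 and Foxf2 contacts did not pass (adjusted p = 0.1934 and 0.07175, limma). None of the 8 baits passed as a whole, against 0.646% of all baits (1 of 8 had an unadjusted p under 0.05, against 2461 of all 21991).

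**Figure D4:**
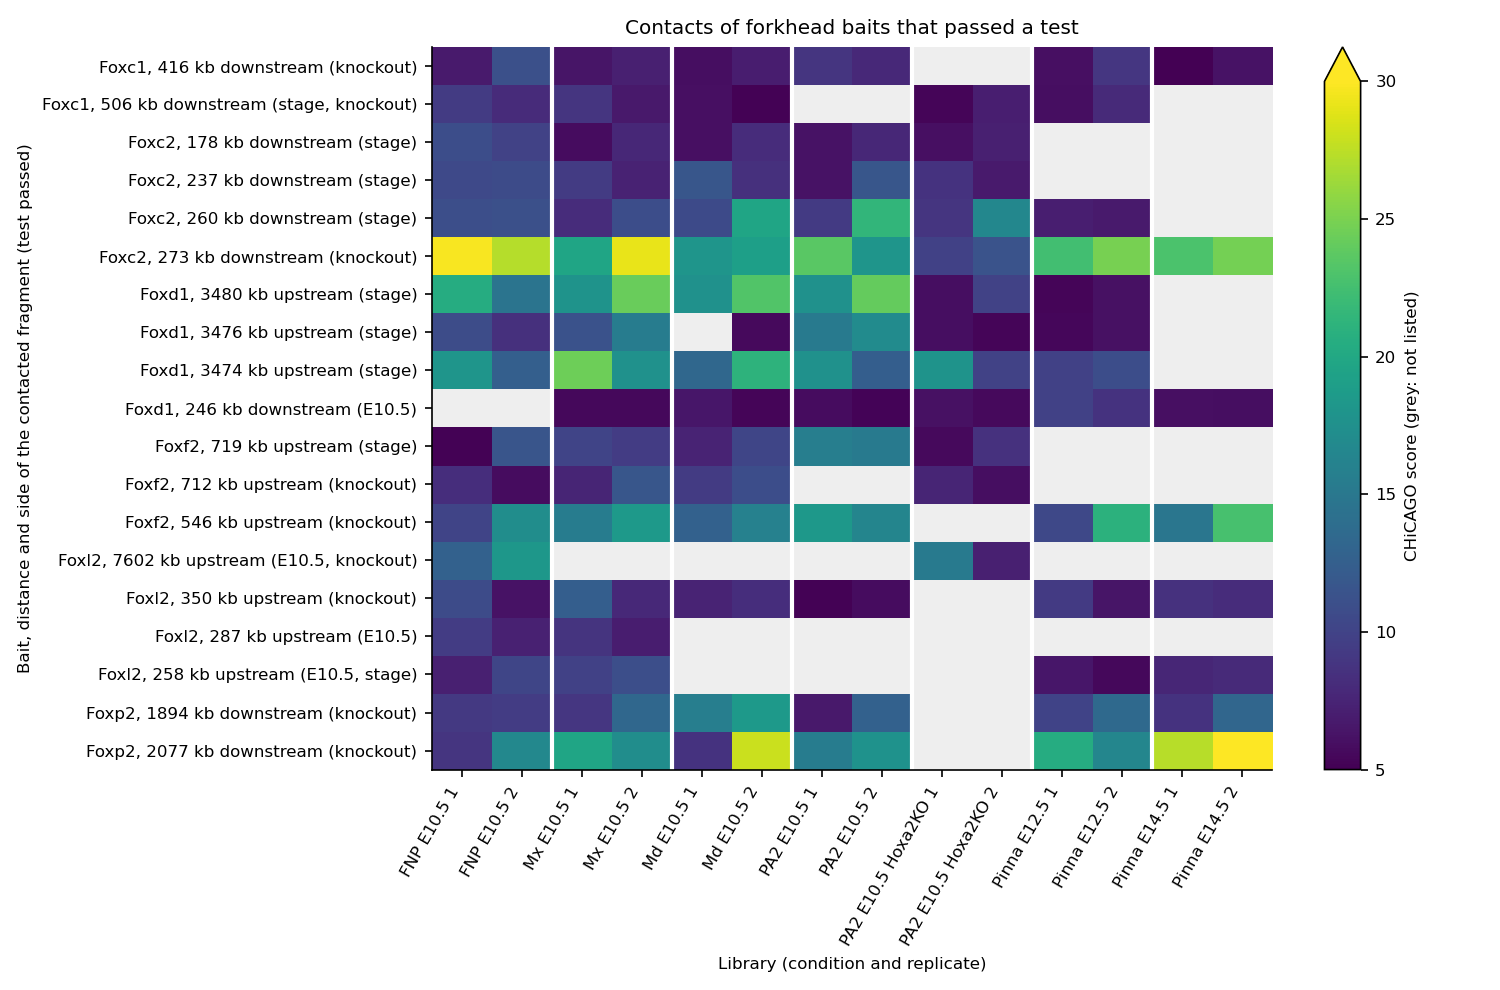
CHiCAGO score in each of the 14 libraries (columns) of the 19 contacts of forkhead baits that passed at least one test (rows, with the bait, the distance in kb and the test); grey marks an unlisted pair. The Foxd1 rows at 3474 to 3480 kb are grey at E14.5, and the Foxf2 row at 546 kb and the Foxp2 rows at 1894 and 2077 kb are grey in the knockout.

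Between the 6 Hoxa2-expressing wild-type libraries and the 6 Hox-negative libraries, Foxf1 was the bait that passed. Its summed score was 17.3 to 124.9 in PA2 and pinna and 134.1 to 235.6 in FNP, Mx and Md, without overlap (log2 difference -1.62, SE 0.33, adjusted p = 0.01723, limma). Of the 8 baits 1 passed, against 0.959% of all baits, or 0.414% called lower. Of the 6 Hoxa2-expressing libraries 4 are pinna of a later stage, so stage and Hoxa2 status cannot be told apart in the pinna. In PA2, of the same stage as the Hox-negative libraries, Foxf1 was at 67.3 and 124.9. The call was lost without E12.5 pinna replicate 1 (adjusted p = 0.06403, limma). Foxl2 had 138.1 to 230.9 in the Hoxa2-expressing libraries and 230.9 to 543.7 in the others, with an adjusted p of 0.09425 (limma, log2 difference -0.83). Of the pairs, 0 of 321 passed, against 0.00943% of all pairs (15 called). An unadjusted p under 0.05 was found for 66 of the 321, against 19232 of all 159013 pairs.

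Of the other 34 forkhead genes with a bait, 34 baits were tested. In the E10.5 comparison 0 were called, against 0.0% of all baits, and between Hoxa2-expressing and Hox-negative libraries 0, against 0.959%. In the stage comparison 4 were called (Foxa1, Foxa2, Foxd4 and Foxe1), against 1.74%. In the knockout comparison 1 was called, lower (Foxn2), against 0.646%. Their mean number of listed contacts had a median of 5.9 and a highest value of 42.7, so Foxc1 and Foxc2 were above all of them. Over the 14 libraries the log2 summed score of the Foxd1 bait was most like that of Hoxc13 (Pearson r = 0.938), of the Six3 bait (0.915) and of the Orc1 bait (0.907). For Foxf1 the most like were Gm23138 (0.932), Cacna1b (0.929) and Map1s (0.923). These values were picked as the highest of all baits over libraries that share depth and stage, and are a description.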

How the data were processed

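Nuclear contacts were measured by PCHi-C in 14 libraries of sorted mouse CNCCs, in 7 conditions with 2 replicates each. The authors mapped and filtered read pairs with HiCUP against GRCm38/mm10, called contacts with CHiCAGO on HindIII fragments, and deposited for each library the pairs with a score of 5 or more. The deposited score is a weighted negative natural log of a p-value and was used as given. Read counts and depth are unknown, so no counting interval is given, and the number of libraries limits the precision.

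Groups were taken from the sample titles. The authors state that the replicates were biologically independent, without saying whether they came from separate litters. Start sites were those of GENCODE vM21, and fragment bounds were checked against the genome, with 723 of 723 fragments bounded by HindIII sites. A pair was tested if listed in at least 4 libraries, on the asinh of its score, and a bait on log2 of its summed same-chromosome score plus 5, each library centred on its median, with limma 3.58.1 (lmFit and eBayes with trend, R 4.3.3), Benjamini-Hochberg adjustment over all pairs or all baits and a threshold of 0.05. F tests compared the E10.5 populations and PA2 with pinna stages, and moderated contrasts the knockout and Hoxa2-expressing libraries. Fits used all 14 libraries, except the last contrast, which used the 12 wild-type libraries as 2 groups. Of the forkhead pairs 321 were tested, and all 8 baits. The text names all 10 genes and, for each, the contact with the highest mean score, the farthest contact listed in at least 7 libraries and every contact past a threshold. The genes, lists and tests were chosen with earlier results of these data known. The fits were tested on simulated data, where shifts were estimated close to those put in but most were not called, so a feature that did not pass is not shown to be unchanged. Python 3.11.15 with pandas 2.3.3 was used for the joins.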

Additional observations from a re-analysis of the deposited data

Results flagged for a closer look

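The summed score of the Foxf2 bait in Md replicate 1 was 228.2, against 262.6 to 359.6 in the other Hox-negative libraries. On the centred log2 scale of the tests it lay apart from them. On that scale its gap to the nearest of them was 0.77 of the range of the 6 libraries, over the critical value of the Dixon test. This was 1 flag in 16 groups tested, and chance flags about 1 group in 20.

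Pairs with other chromosomes were not used in the comparisons. The forkhead baits exceeded 3 such pairs only in 2 libraries. In Md replicate 1 the numbers were 4 for Foxf2, 4 for Foxc2, 7 for Foxf1, 5 for Foxd1, 4 for Foxl2, 8 for Foxp1 and 8 for Foxp2. In E12.5 pinna replicate 2 they were 14 for Foxc1, 18 for Foxf2, 8 for Foxc2, 11 for Foxf1, 7 for Foxl2, 6 for Foxp1 and 46 for Foxp2. Those are the libraries in which between-chromosome pairs made up 46.53% and 62.73% of the list. No between-chromosome pair of a forkhead bait was listed in a second library.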

How the results depend on the processing

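Each called forkhead contact or bait was tested again under the alternatives. The 22 calls of pairs were tested 457 times, with the call kept 316 times, lost 141 times and reversed 0 times, and the 3 calls of baits 67 times, with 49 kept and 18 lost. Kept throughout were Foxf2 with chr13:31076340-31084294 in the knockout and Foxd1 with chr13:94874201-94874552 over stages. The cause of the changes was not tested.

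The share of all features called also moved with the setting and is given in brackets. For pairs, the E10.5 comparison with 4 called contacts (0.494%) had 15 of 512 with pairs listed in at least 2 libraries (2.45%). It had 0 with at least 6 libraries (0.21%), with scores of 10 or more only (1.76%) and with scores capped at 20 (0.0208%). With quantile normalization (0.0145%) and with the replicate block (0.00252%) it also had 0. The stage comparison with 9 (1.95%) had 2 of 85 with scores of 10 or more (3.19%) and 5 of 321 with the replicate block (0.591%). The knockout comparison with 9 (2.09%) had 16 of 512 with at least 2 libraries (3.97%) and 4 of 85 with scores of 10 or more (3.08%). The Hoxa2-expressing comparison with 0 (0.00943%) had 2 of 512 with at least 2 libraries (0.0734%) and 2 of 229 with at least 6 (0.242%). The fit of condition means gave 16 of 321 (2.6%). For the 8 baits, the stage comparison with 2 (1.74%) had 1 without centring (1.45%) and 0 with the number of listed pairs (1.25%). It had 1 with pairs within 2 Mb (2.89%), scores of 10 or more (1.92%) or equal numbers of top-scoring pairs (1.53%). The knockout comparison with 0 (0.646%) had 1 with scores of 10 or more (1.89%). The Hoxa2-expressing comparison with 1 (0.959%) had 2 with scores of 10 or more (1.27%) and with condition means (3.76%). The setting without both libraries rich in between-chromosome pairs was added after the data had been seen. It left a single library in Md and in E12.5 pinna, so its counts are not given here.

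Leaving out 1 library in turn gave 0 to 11 called pairs at E10.5, 5 to 19 over stages, 9 to 15 in the knockout and 0 to 1 for Hoxa2-expressing libraries, and 0, 0 to 3, 0 and 0 to 2 called baits. The Foxf1 stage call was lost without PA2 replicate 2, and the Foxf1 Hoxa2 call without E12.5 pinna replicate 1. The Foxd1 call was lost without either library of FNP, Mx, PA2, the knockout or E14.5 pinna. Replicate numbers did not pair the libraries: the correlations of same-numbered deviations were 0.00226 to 0.069 over 21 pairs of conditions.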
